A study of Mus musculus with 7 samples.

Results

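Mural cells are the cells of the vessel wall outside the endothelium, and 66 of 26709 kept cells met the gate for them in cultures of newborn (P0) mouse hippocampus. Barcodes were kept with 500 or more genes detected and no more than 10% of UMIs from mitochondrial genes, where a UMI (unique molecular identifier) stands for 1 captured RNA molecule. A kept cell was called mural if at least 3 of the 6 genes Pdgfrb, Notch3, Abcc9, Kcnj8, Higd1b and Ndufa4l2 were detected, Rgs5 had at least 1 UMI, and Cldn5, Pecam1 and Cdh5, genes of endothelial cells, together had at most 1. These 10 genes chose the cells, so their levels are a description and carry no test. Trypsin-dissociated hippocampal cells were plated on poly-D-lysine in medium with serum and B-27, and 10x Genomics libraries were made after 1 day in vitro (DIV1, 1 library) and after 3, 5 and 7 days (DIV3, DIV5 and DIV7, 2 libraries each). Strain, genotype and sex were not named in the labels, and nothing in them says whether the 2 libraries of a day came from separate cultures, so a p-value here measures only how these libraries vary, and that variation can be technical. The labels list mural cells among the cell types of the cultures.

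Pericytes sit on capillaries inside the basement membrane that they share with endothelial cells, and vascular smooth muscle cells wrap arterioles. Endothelial Pdgfb recruits both through the receptor Pdgfrb, and Notch3 maintains them. Pericytes are known for Rgs5, for the potassium channel subunits Kcnj8 and Abcc9, and for Cspg4 (NG2) and Vtn (vitronectin), while contractile smooth muscle is known for Acta2 (smooth muscle actin), Tagln, Cnn1 and Myh11.

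The gated cells were few and unevenly spread over the libraries. DIV1 held 3, DIV3 held 35 and 16, DIV5 held 5 and 2, and DIV7 held 3 and 2. As a share of kept cells DIV1 had 0.0732% (95% exact Clopper-Pearson interval 0.0151% to 0.214%), and the DIV3 libraries had 0.680% (0.474% to 0.945%) and 0.564% (0.323% to 0.914%). The DIV5 libraries had 0.116% and 0.0518%, and the DIV7 libraries 0.102% and 0.0569%. Both DIV3 libraries stood above the other 5. They were also the most deeply sequenced, with a median of 20267 and 14294 UMIs per kept cell against 7143 to 13184 elsewhere, and a rule that counts detected genes is easier to meet in a deep cell. After thinning each cell to 5000 UMIs, 6 cells met the gate, of which DIV1 held 2, the DIV3 libraries 0 and 1, the DIV5 libraries 2 and 1, and DIV7 none, and the excess at DIV3 was no longer seen. At 10000 UMIs DIV1 held 1, the DIV3 libraries 6 and 5, each DIV5 library 1 and DIV7 none, and at 15000 UMIs the DIV3 libraries held 14 and 10 of 26 cells. Across the 7 libraries the share had a Pearson correlation of -0.43 with day (exact permutation p = 0.378, two-sided) and a Spearman correlation of -0.39 (exact permutation p = 0.413), so neither test passed. The Spearman test did pass with at least 4 of the 6 genes (rho -0.79, exact permutation p = 0.0476), without cells holding fibroblast, neuron, microglia or ciliated-cell markers (rho -0.79, exact permutation p = 0.0413) and after thinning to 10000 UMIs (rho -0.87, exact permutation p = 0.0206). Leaving out the 2 libraries farthest from the median day (DIV1 and, as these are equally far, any 1 library of DIV3 or DIV7) gave r between -0.88 and -0.80. Such intervals cover counting error only.

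**Figure D1:**
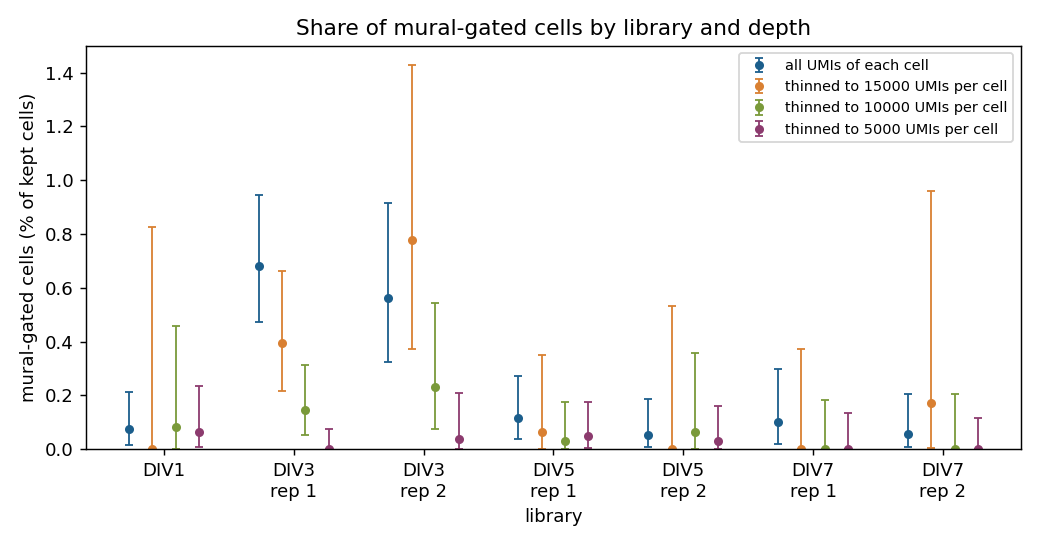
Share of kept cells (vertical axis, %) that met the mural gate in each of the 7 libraries (horizontal axis), with all UMIs and after thinning each cell to 15000, 10000 or 5000 UMIs; bars are 95% exact binomial intervals. The DIV3 libraries lie at 0.680% and 0.564% with all UMIs, and at 0% and 0.0376% at 5000 UMIs.

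Of the 66 cells, 47 had exactly 3 of the 6 genes, 17 had 4 and 2 had 5. Just outside the threshold, 188 cells had Rgs5 and exactly 2 of the genes, and without the Rgs5 requirement 176 cells met the rule. Pdgfrb, the receptor of the family, was detected in 33 of 35 and 16 of 16 cells at DIV3, and Kcnj8 in 28 of 35 and 8 of 16. In neurons of the same days, which should lack it, Rgs5 had a UMI in 1.97% of 1780 cells at DIV3 and in 4.36% of 1973 cells at DIV5 and DIV7. The receptor Pdgfrb had its highest level in the DIV1 cells, at 677 CPM (a gene's UMIs summed over the gated cells of a library and scaled to a common total), and stood at 89.3 and 139 CPM at DIV3, 199 and 97.7 in the DIV5 pair and 134 and 175 in the DIV7 pair. Rgs5, an inhibitor of G protein signalling, ranged from 53.5 CPM in DIV7 replicate 1 to 1319 in DIV5 replicate 2. Abcc9 was detected on every day but DIV7, where 5 cells were gated. No UMI of Cldn5, Pecam1 or Cdh5 (below, no endothelial UMI) was found in any of the 66 cells, although the gate allowed 1. Flt1, an endothelial marker outside the gate, was at least 2-fold higher in them than in fibroblasts and than in all other cells in both DIV3 libraries. No gated cell shared its barcode with another library, where 477 barcodes did.

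Not every gated cell held mural genes alone. At least 4 of 7 fibroblast genes were detected in 19 of the 66 cells, at least 4 of 6 astroglia genes in 11, neuron genes in 7, microglia genes in 5 and genes of ciliated cells in 3; 27 cells held markers of at least 1 class other than astroglia. In all, 6 cells were among the highest doublet scores of their library. In DIV3 replicate 1, 3 cells with 18 to 23 Acta2 UMIs held 18 to 45 UMIs of Slc1a3, a glutamate transporter of astroglia, while the other 32 held 157 to 815 Acta2 UMIs and at most 3 of Slc1a3. C1qa, a complement gene of microglia, had a UMI in no gated cell but the 2 of DIV7 replicate 2, which held 1 and 7. The part of such cells in the results below was not tested beyond the values given there.

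At DIV3 the gated cells were rich in contractile genes. Acta2 stood at 12733 and 8500 CPM in the 2 DIV3 libraries. In fibroblast-gated cells, defined by at least 4 of 7 collagen and stromal genes without Rgs5, it stood at 1970 and 1428 CPM in the same libraries. That is 6.43-fold and 5.92-fold more on a scale with 10 CPM added to both, and the gated cells were above the fibroblasts in both libraries. Neurons of these libraries showed 296 and 97.1 CPM of Acta2, a gene they should lack. Myl9, the regulatory light chain of smooth muscle myosin, stood at 2497 and 2066 CPM against 366 and 223 in fibroblasts. Cnn1 (calponin, an actin-binding protein) stood at 505 and 463 CPM against 75.4 and 44.6, and Des (desmin, the muscle intermediate filament) at 143 and 119 against 19.5 and 18.0. Actg2, the actin of visceral smooth muscle, differed most between the libraries, with 1885 and 389 CPM against 34.6 and 21.7. Myh11, the smooth muscle myosin heavy chain, was low in the gated cells, at 55.0 and 36.9 CPM, and near absent from fibroblasts, at 1.56 and 0.878.

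Read as a list, 22 of 29 contractile genes with a mean of at least 20 CPM over both classes were at least 2-fold higher than in fibroblasts in both DIV3 libraries, and none was lower. Among all 5103 genes so compared, 5.55% were higher and 1.57% lower. The median log2 ratio of the contractile list was 1.53, against 0.11 for all genes. Set against all other cells, 27 of the 29 were higher and none lower, where 4.63% of 5746 genes were higher and 5.46% lower. Of 12 pericyte genes outside the gate, 10 were higher than in all other cells, Tbx18, Cspg4 and Foxf2 among them, and 6 were higher than in fibroblasts, with none lower in either comparison. The 6 were Ebf1, a transcription factor, Mcam (CD146), Foxs1, the phosphodiesterase Pde5a, and the receptors P2ry14 and Pth1r. Tbx18, a transcription factor of mural cells, did not reach a 2-fold difference from fibroblasts, at 139 and 108 CPM against 69.4 and 98.1 in fibroblasts. Outside the gate genes, the full lists held 37 contractile and 27 pericyte genes. A gene near absent from the other class could pass the 20 CPM mean only through the gated cells. Part of the counts of higher genes was therefore set by that filter. This comparison has no test, because the cells were chosen on genes that move with these.

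Promoter sequences are shown for Acta2, Myl9 and Filip1l, a filamin-interacting protein, since all are contractile-list genes that also fell later in the culture. The factor SRF is known to bind the CArG box in such promoters. That motif is CC, then 6 bases of A or T, then GG, and reads alike in form on both strands. Of 32851 windows of 300 bases in RefSeq (GRCm38.p6), 1.63% held a CArG box. Windows of 7 of 30 contractile-list genes held one, among them 2 of the 9 genes that fell and have a window. The first is a share of windows and the second a count of genes, some with several windows. The 250 bases before the start are printed 5′ to 3′ on the gene's strand with the CArG box in capitals. The Myl9 sequence lies at chr2:156775214-156775463 (plus strand) with the box beginning 161 bases before the start. That of Filip1l lies at chr16:57548992-57549241 (plus strand) with the box 62 bases before the start. Another window of Filip1l, at chr16:57353027-57353326 (plus strand), held no box. The Acta2 sequence lies at chr19:34255374-34255623 (minus strand) with no match to these letters. The deposited files use another build (mm9), so these coordinates belong to the promoter windows alone.
Myl9: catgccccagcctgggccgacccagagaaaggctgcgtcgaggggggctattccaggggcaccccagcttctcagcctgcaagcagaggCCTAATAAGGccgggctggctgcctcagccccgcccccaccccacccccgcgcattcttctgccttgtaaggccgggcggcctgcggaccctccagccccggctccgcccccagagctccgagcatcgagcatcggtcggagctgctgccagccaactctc
Filip1l: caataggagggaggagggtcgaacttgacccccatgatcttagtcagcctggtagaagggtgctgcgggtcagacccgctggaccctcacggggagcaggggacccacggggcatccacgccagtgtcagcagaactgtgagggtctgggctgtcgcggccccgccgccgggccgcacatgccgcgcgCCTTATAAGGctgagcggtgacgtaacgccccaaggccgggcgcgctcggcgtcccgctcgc
Acta2: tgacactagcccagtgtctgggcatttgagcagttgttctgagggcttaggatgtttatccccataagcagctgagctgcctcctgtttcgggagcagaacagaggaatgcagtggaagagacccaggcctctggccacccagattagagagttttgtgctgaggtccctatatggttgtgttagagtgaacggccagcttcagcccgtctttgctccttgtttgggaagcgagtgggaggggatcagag
A match is a description of the letters and no evidence of binding, and a missing match says nothing of the factor.

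At DIV1, 1 library and 3 cells, the picture was different, and the values have no replicate. All 3 cells held Cspg4, Vtn and Tbx18. Cspg4 had 11 UMIs, or 338 CPM (95% exact Poisson interval 169 to 606, counting error only), against 22.3 CPM in fibroblasts. Vtn stood at 215 CPM (86.6 to 444), below the 452 CPM of fibroblasts. Heyl, a Notch target, had 4 UMIs. Acta2 had 3 UMIs, all in 1 cell, or 92.3 CPM (19.0 to 270), and fibroblasts stood at 341. Myh11, Cnn1 and Col1a1 had no UMI, which at 3 counts of 32503 allows up to 92.3 CPM. Myl9 was present in all 3 cells, at 769 CPM. Of the other pericyte genes, Mcam and Heyl were found in 2 of the 3 cells, Foxf2 and Cox4i2 in 1, and Anpep, Atp13a5 and Art3 in none.

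The 12 cells of DIV5 and DIV7 lacked Vtn. No UMI of it was found in 189252, which allows 15.9 CPM, while DIV3 cells held 33.4 and 31.2 CPM and 24 of 51 cells had a UMI. Cspg4 had a UMI in 2 of these 12 cells and in 27 of 51 at DIV3. The DIV3 cells were deeper, and after thinning each cell to 5000 UMIs Vtn was found in 9 of 51 cells at DIV3 and 0 of 12 later, and Cspg4 in 6 of 51 and 0 of 12. Foxf2, a transcription factor of brain pericytes, was found in 10 of the 12 cells and in 31 of 51 at DIV3. After the same thinning it was found in 8 of the 12 and in 11 of 51 at DIV3. Acta2 was found in 10 of the 12 cells, at 4913 and 1026 CPM at DIV5 and 1377 and 1955 at DIV7. The lowest DIV3 library, at 8500, was above all 4. Col1a1, the fibrillar collagen chain made by fibroblasts, stood at 1051 and 729 CPM at DIV3. It had 949 and 1367 in the DIV5 pair and 2621 and 2827 in the DIV7 pair. Both DIV7 libraries were above both DIV3 libraries. At least 4 of 7 fibroblast genes were present in 2 of 3 gated cells of DIV7 replicate 1 and 1 of 2 of replicate 2. In the DIV3 replicates 13 of 35 and 2 of 16 gated cells had them. Among gated DIV7 cells, 1 in replicate 1 and 0 in replicate 2 lacked markers of every class other than astroglia. The part of such mixed cells in these late levels and zeros was not tested. Among mural genes outside the gate, Tbx18 was found in 9 of the 12 cells, against 1.52% of neurons. At DIV3 it was found in 45 of 51 gated cells. Thinned to 5000 UMIs, it was found in 24 of 51 there and 5 of 12 later. Vtn, Anpep, Atp13a5 and Cox4i2 were at 0 in all 12, but at DIV3 Atp13a5 was also at 0 of 51 cells, Anpep in 2 and Cox4i2 in 7.

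**Figure D2:**
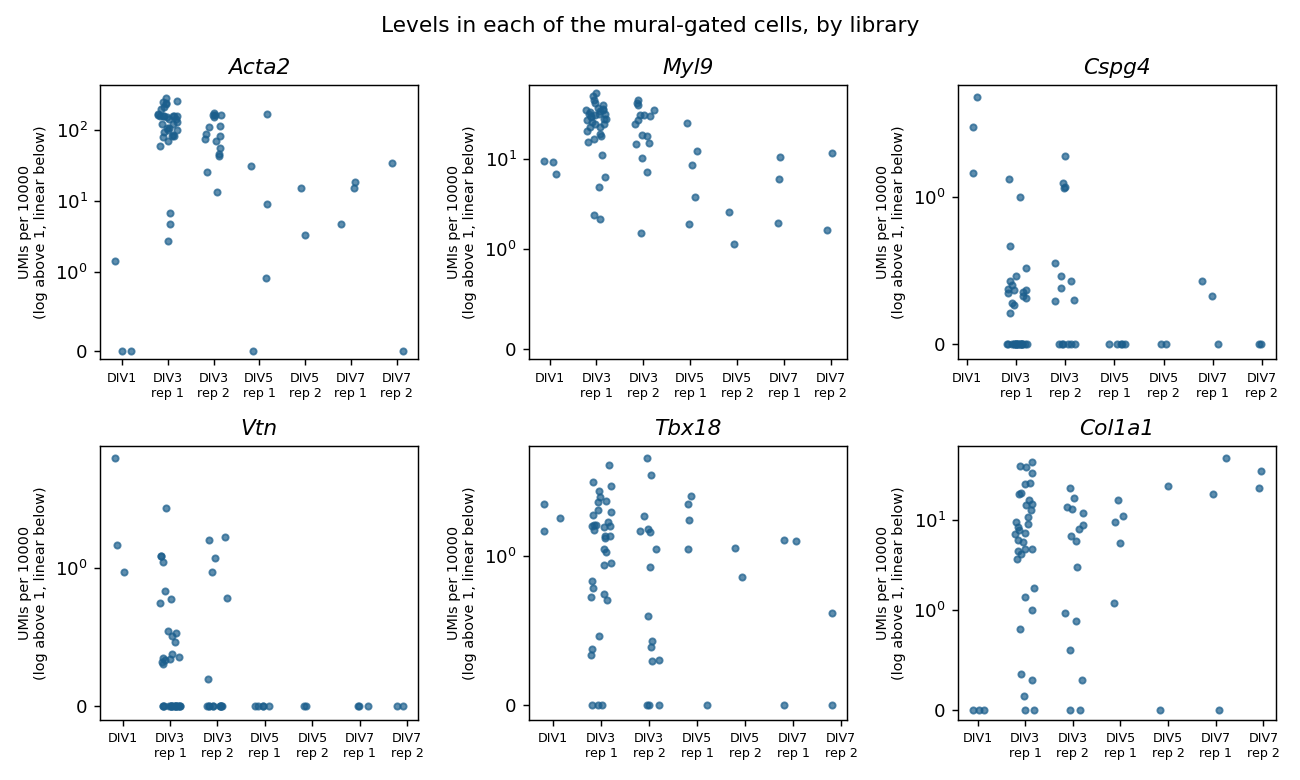
UMIs per 10000 of 6 genes (vertical axes, logarithmic above 1 and linear below) in each of the 66 gated cells (points), by library. Acta2 is at 0 in 2 of the 3 DIV1 cells and present in all 51 DIV3 cells, and Vtn is at 0 in all 12 cells of DIV5 and DIV7.

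Changes between days could not be tested on the gated cells as intended, because only 1 library, DIV3 replicate 1, held the required 20 cells. The test was run on a wider gate of 254 cells, the 66 and the 188 with exactly 2 of the 6 genes, which gave 5 libraries with at least 20 cells. This set was chosen after the calls of both fits had been seen. Fitted on the 66 cells with no minimum, the same test called 2 of 2103 genes (0.0951%) from DIV3 to DIV7, Neat1 and Igfbp4, both higher, 4 genes (0.19%) from DIV3 to DIV5, and none from DIV5 to DIV7, with 149 at an unadjusted p under 0.05 there. DESeq2 was not run on these cells. The wider gate is mixed. At least 4 astroglia genes were found in 38.0% and 44.4% of its cells at DIV3 and in 48.3% and 70% at DIV7, and fibroblast genes in 28.3% and 8.89% against 48.3% and 35%. The 8 astroglia markers summed to 2034 and 2600 CPM at DIV3 and 3879 and 10912 at DIV7, and the 8 fibroblast markers to 1986 and 1748 against 5174 and 4397. Their part in the changes was not tested beyond the fits without such cells. In a bulk sum of cells, fewer cells of a type and less RNA per cell cannot be told apart.

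In the wider gate, 501 of 9317 genes (5.38%) differed between DIV3 and DIV7 by edgeR's quasi-likelihood test at an adjusted p under 0.05, 283 higher (3.04%) and 218 lower (2.34%) at DIV7. With scaling by total counts the split was 388 and 166, and the median of all genes moved from 0.03 to 0.16. Without the cells holding fibroblast, neuron, microglia or ciliated-cell markers (113 of 254; cells with astroglia genes alone were kept), and with no minimum of cells, 0 of 5110 genes were called, with 948 at an unadjusted p under 0.05. Without the cells holding astroglia genes 520 of 6582 (7.9%) were called, 289 higher (4.39%) and 231 lower (3.51%), and 272 of them were among the 501.

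Contractile genes fell from DIV3 to DIV7. Of 32 tested, 11 fell and none rose, with a list median of -1.08 log2 against 0.03 for all genes. Among all 9317 genes tested 2.34% fell and 3.04% rose. Without the cells holding astroglia genes these shares were 3.51% and 4.39% of 6582. They are the background of the DIV3 to DIV7 list counts below. Without the cells holding astroglia genes 11 of 29 fell, with a median of -1.07, and without the cells holding fibroblast, neuron, microglia or ciliated-cell markers none of 27 was called and the median was -1.04. Myl9 had 2024 and 1448 CPM at DIV3 and 363 and 207 at DIV7, and fell by 2.72 ± 0.32 (SE) on the log2 scale (edgeR adjusted p = 4.96e-05). Acta2 had 9695 and 5884 CPM at DIV3 and 2187 and 1014 at DIV7, and fell by 2.42 ± 0.39 (edgeR adjusted p = 0.00972). Without the cells holding astroglia genes its log2 change was -2.51, as large, with an adjusted p of 0.203. Des fell by 2.58 ± 0.46 (edgeR adjusted p = 0.00233). Tagln, an actin-binding protein of early smooth muscle, fell by 1.39 ± 0.30, Tpm2 (tropomyosin) by 1.72 ± 0.32 and Nexn, an actin-filament protein, by 2.10 ± 0.41. Fewer falls of the list were called when either DIV7 library was left out. As examples, Tagln lost its call without DIV7 replicate 2, and Tpm2 without DIV7 replicate 1. The remaining falls were of Cald1, Csrp1, Filip1l, Mustn1 and Tpm1. Cnn1 had a log2 change of -1.66 ± 0.68 (adjusted p = 0.254), Myh11 of -1.71 ± 0.56 (adjusted p = 0.0742) and Mylk of -0.96 ± 0.32 (adjusted p = 0.0828), none past the threshold. With 1 library left out, 6 to 18 genes of the list fell and none rose. In the 66 cells alone, where no contractile gene was called, the list median was -0.79 and Myl9 stood at 2497 and 2066 CPM at DIV3 and 669 and 733 at DIV7.

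**Figure D3:**
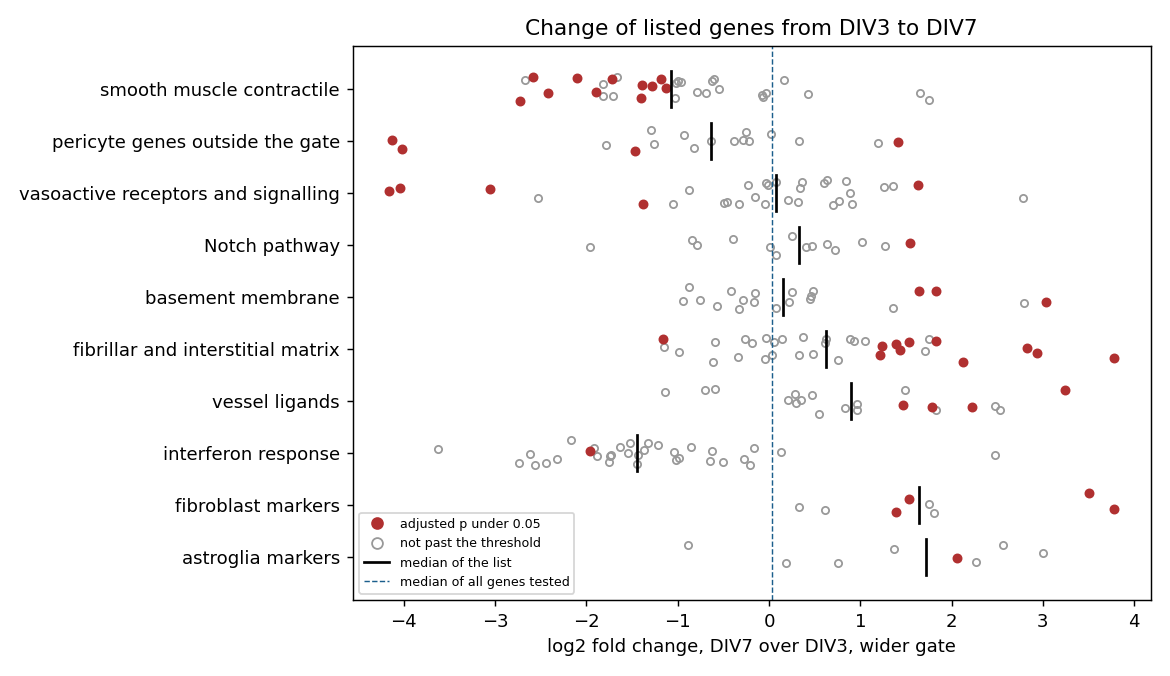
Log2 fold change from DIV3 to DIV7 in the wider gate (horizontal axis) of each tested gene of 10 lists (rows); filled points passed an adjusted p of 0.05, open points did not, and black bars are list medians. Contractile genes have a median of -1.08, and none of their filled points lies above 0.

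Vasoactive receptors and signalling genes did not move as a group: of 31 tested 4 fell and 1 rose, and the list median was 0.07, against 0.03 for all genes. Kcnmb1, the smooth muscle subunit of the BK potassium channel, had 51.7 and 45.7 CPM at DIV3 and 4.42 and 0 at DIV7, and fell by 4.16 ± 0.65 on the log2 scale (edgeR adjusted p = 0.00100). Gucy1a1 and Gucy1b1, the subunits of the nitric oxide receptor guanylate cyclase, fell by 4.04 ± 0.71 and 3.05 ± 0.67, calls lost without DIV7 replicate 1 and DIV7 replicate 2 respectively. In the 66 cells Gucy1b1 went from 36.3 and 48.2 CPM at DIV3 to no UMI in the 12 later cells. Rgs4, a regulator of G protein signalling, fell too, and Ednrb, the endothelin B receptor, rose, though not without DIV3 replicate 1 or DIV7 replicate 2.

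Pericyte genes outside the gate moved less uniformly. Of 17 tested, 3 fell and 1 rose, where 2.34% of all genes tested fell and 3.04% rose. Vtn fell by 4.13 ± 0.95 (edgeR adjusted p = 0.0130) and lost the call without DIV3 replicate 1 or either DIV7 library, Ebf1 fell by 1.47 ± 0.35 and Gper1, an estrogen receptor, by 4.02 ± 1.13. S1pr3, a sphingosine phosphate receptor, rose by 1.42 ± 0.33. Ebf1 lost its call without DIV7 replicate 2, Gper1 without DIV3 replicate 1 or DIV7 replicate 1, and S1pr3 without DIV3 replicate 1 or either DIV7 library. Tbx18 had a log2 change of 0.02 ± 0.34 (adjusted p = 0.979), Cspg4 of -0.39 ± 0.48 (adjusted p = 0.682) and Mcam of -1.26 ± 0.41 (adjusted p = 0.0778). Among Notch genes 1 of 14 rose, the ligand Jag1, by 1.55 ± 0.39 (not without DIV3 replicate 1 or DIV7 replicate 1), and Heyl and Anpep were too low to test. Pdgfb had a log2 change of -1.16 ± 0.86 (adjusted p = 0.460). Angpt1, the ligand that steadies endothelium, had one of 0.20 ± 0.41 (adjusted p = 0.818).

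Matrix genes rose. Of 34 fibrillar and interstitial matrix genes 10 rose and 1 fell (Col8a1), with a median of 0.62. Col1a1 had 665 and 696 CPM at DIV3 and 2444 and 1807 at DIV7, and rose by 1.53 ± 0.27 (edgeR adjusted p = 0.00230), a call lost without DIV7 replicate 1. Mgp, an inhibitor of calcification, rose by 2.94 ± 0.35, and Lox, which cross-links collagen, by 2.13 ± 0.33. Both DIV7 libraries were above both DIV3 libraries for each. Fibroblast markers rose alongside, 4 of 8 tested. Without the cells holding fibroblast, neuron, microglia or ciliated-cell markers no matrix gene of 30 was called, the list median was 0.13, and Col1a2 had a log2 change of -2.34. Col4a1, a basement membrane chain, had a log2 change of -0.33 ± 0.31 (adjusted p = 0.573), while 3 of 20 basement membrane genes rose: Col4a5, Fbln1 and Npnt.

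Igfbp4, which binds insulin-like growth factors, had 13.1 and 27.9 CPM at DIV3, with 113 and 225 in the DIV5 pair and 475 and 297 in the DIV7 pair, and rose by 4.23 ± 0.39 from DIV3 to DIV7 (edgeR adjusted p = 3.65e-06). It was also called in the 66 cells (4.68 log2, adjusted p = 0.0230), where it stood at 7.85 and 25.5 CPM at DIV3 and 308 and 454 at DIV7, with all DIV7 values above all DIV3 values. Neat1, a nuclear long RNA, rose in the 66 cells by 5.12 (adjusted p = 0.00920). Ptgs2 (cyclooxygenase 2) rose by 4.23 ± 0.49, Gpx3, a secreted peroxidase, by 4.05 ± 0.47, and the chemokine Cxcl12 by 3.25 ± 0.43. Of 28 inflammatory and chemokine genes 7 rose and none fell, with a median of 0.71. Without the cells holding astroglia genes 4 of 22 rose and 1 fell with a median of 0.06, and in the 66 cells none was called and the median was -0.08. Immediate early and dissociation genes respond to stress and handling. In the wider gate 6 of 24 were higher (Atf3, Btg2, Egr1, Egr2, Fos and Fosl2) and 1 lower (Hspb1), with a median of 1.04. Without the cells holding astroglia genes 4 of 22 rose and 2 fell with a median of 0.87. Without the cells holding fibroblast, neuron, microglia or ciliated-cell markers none of 21 was called and the median was 1.53. In the 66 cells none of 16 was called and the median was 0.13. In DIV7 replicate 1, 17.7% of barcodes were over the mitochondrial limit, against 1.38% to 5.90% in the other libraries. The part of these signs in the rises was not tested. Of 20 vessel ligands 4 rose, among them Vegfa, which lost its call without DIV7 replicate 2. For interferon response genes the median was -1.45, with 1 of 33 called (Oasl2, lower), near the 2.34% of all genes tested that were lower. That median rested on DIV3 replicate 1, since it was -0.0016 without that library and -2.17, with 21 falls, without DIV3 replicate 2. In the 66 cells the sum of the interferon response genes differed between the DIV3 libraries, at 11727 and 3198 CPM.

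The shorter intervals gave few calls. From DIV3 to DIV5, 4 of 8109 genes (0.0493%) were called in the wider gate over libraries with at least 15 cells: Igfbp4 and the ciliated-cell gene Meig1 rose (0.0247%), and Ecscr and Myl9 fell (0.0247%), Myl9 by 2.08 ± 0.34 (edgeR adjusted p = 0.0430). All 4 calls were lost without DIV3 replicate 1, and those of Meig1, Ecscr and Myl9 also without DIV5 replicate 1. In the 66 cells 4 of 2103 genes were called on this step, with Itm2a, Ifitm1 and Itm2b higher and Fabp5 lower at DIV5. From DIV5 to DIV7 the single call (0.0123%) was Cenpf, a gene of dividing cells, which rose by 2.50 ± 0.36 and lost its call without DIV5 replicate 1 or DIV7 replicate 2.

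Whether these changes were larger than in the fibroblasts of the same libraries was tested by an interaction of day and class, with the library as a block. Of 12455 genes 660 (5.3%) changed differently. The log2 change was higher in the wider mural gate for 354 and lower for 306, a split of 295 and 423 with scaling by total counts. These are differences in change and not in level. Myl9 fell further in the wider mural gate than in fibroblasts, with a difference of -1.998 ± 0.243 on the log2 scale (edgeR adjusted p = 2.20e-07), and Cnn1 had a difference of -1.62 ± 0.27 (edgeR adjusted p = 4.81e-05). For Acta2 it was -1.10 ± 0.23 (edgeR adjusted p = 0.00106), a call lost without DIV3 replicate 1 (adjusted p = 0.257) and without the cells holding astroglia genes, where the difference was -1.65 (adjusted p = 0.584). For Tagln the difference was -0.29 ± 0.26 (adjusted p = 0.642). Fibroblasts themselves went from 1970 and 1428 CPM of Acta2 at DIV3 to 847 and 734 at DIV7. The astroglia gate (at least 4 of 6 astroglia genes) left out the 66 cells but not the rest of the wider gate. At least 4 astroglia genes were found in 118 of the 254 wider-gate cells, and 11 of these were among the 66. The others of the 118 were counted in both classes. Against astroglia-gated cells, 794 of 15944 genes (4.98%) changed differently, and Acta2 did not pass the test (-0.42 ± 0.14, adjusted p = 0.0561). In those cells Acta2 went from 1130 and 775 CPM at DIV3 to 326 and 180 at DIV7. Neurons, which should lack Acta2, had a UMI of it in 42.2% and 22.4% of cells in the DIV3 libraries. In the DIV7 libraries the neuron shares were lower, at 16.9% and 12.4%. The part of this neuron signal in the Acta2 falls of the other classes was not tested. Igfbp4 rose further in the wider mural gate, by 2.37 ± 0.28 against fibroblasts and 2.33 ± 0.33 against astroglia.

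**Figure D4:**
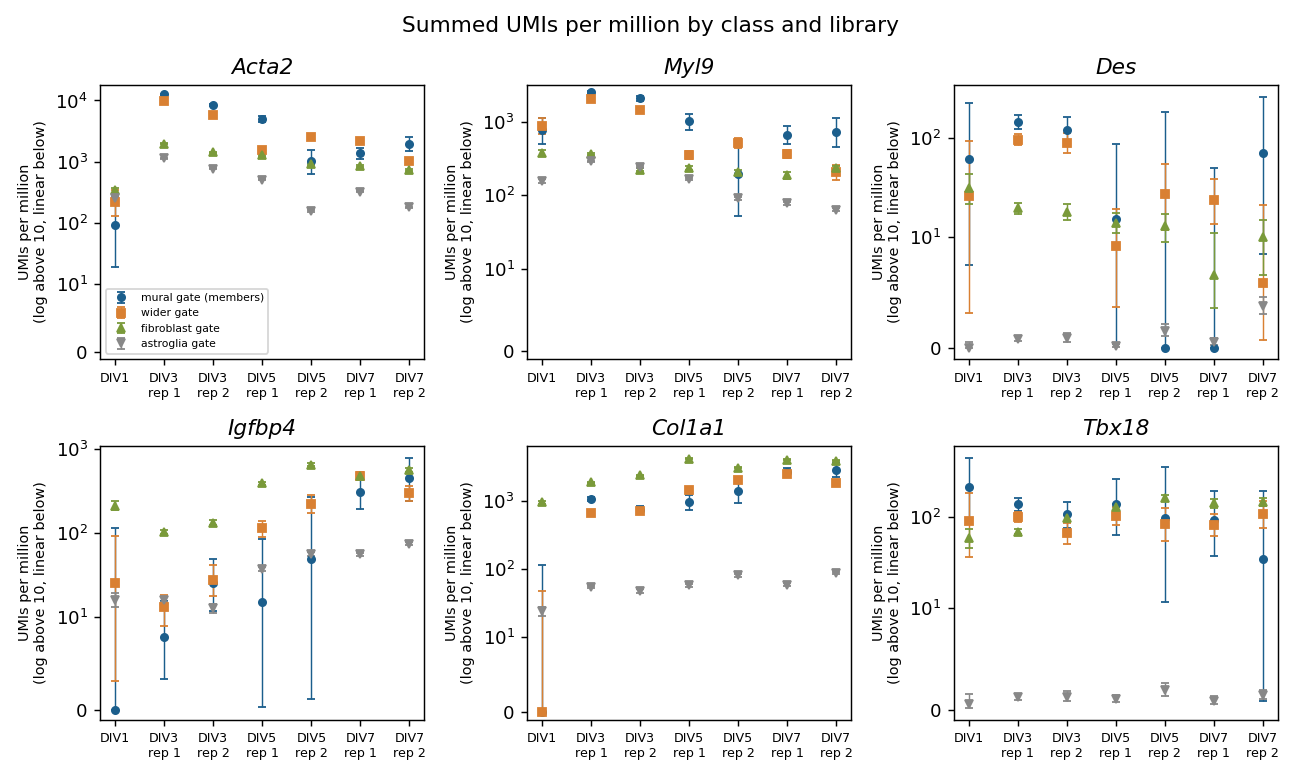
CPM (vertical axes, logarithmic above 10 and linear below) of 6 genes in the summed cells of the mural gate, the wider gate, the fibroblast gate and the astroglia gate, by library; bars are 95% exact Poisson intervals. Acta2 is lower in both DIV7 than in both DIV3 libraries in the wider gate, the fibroblasts and the astroglia, going from 9695 and 5884 to 2187 and 1014 in the wider gate.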

How the data were processed

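The authors deposited 1 matrix of raw UMI counts per gene and cell barcode for each of 7 libraries, made with Cell Ranger 4.0.0 against mm9 per the submitters' processing notes, and written by software version 3.0.2 per the file headers. The gated cells, the lists and the named genes were chosen with earlier results of these data known. UMIs of the gated cells were summed per library and tested with edgeR 4.0.16 in R 4.3.3 (TMM scaling, a filter on low counts, quasi-likelihood F test, Benjamini-Hochberg adjustment), and DESeq2 1.42.0 was an alternative. The planned minimum of 20 cells per library left 1 library of the 66 cells. The wider gate, first meant as a second setting, was made the tested set after both fits' calls had been seen, and the minimum of 15 cells for DIV3 to DIV5 and DIV5 to DIV7 was added then too. Gate genes are in the fits but are not read as results. Genes were named as the 15 largest rises and falls past the test with at least 20 CPM and no overlap between days (predicted, haemoglobin, ribosomal and mitochondrial genes left out), up to 4 per list by smallest p, and 16 textbook genes. The text gives those that carry a comparison; Nexn, Cald1, Csrp1, Filip1l, Tpm1, Rgs4, Col8a1 and Mylk were named after their values were seen. Interaction genes were the 5 largest in each direction whose ratio to the other class did not overlap between days. Libraries held 36226566 to 114119537 UMIs. The gated cells of a library summed to 20477 to 1018702 UMIs, so that 3 UMIs correspond to 2.94 to 147 CPM. Doublets were scored with Scrublet in scanpy 1.11.5, which called 3 to 75 barcodes per library and under 0.5% in some, so it removed none and the highest scores were left out as an alternative. On simulated data of the wider gate's depth, 4 of 100 genes changed by 1 log2 unit and 51 of 100 changed by 2 were called, with 4 false calls. The simulation used a fixed spread that was not estimated from these libraries. It also gave every library the same mix of cells, so these numbers need not hold for the real libraries.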

Additional observations from a re-analysis of the deposited data

Results flagged for a closer look

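The genes below changed differently from DIV3 to DIV7 in the wider mural gate and in another class of the same libraries, by edgeR's interaction test at an adjusted p under 0.05. Values are the mural log2 change minus that of the other class, so a low value can also come from a rise in the other class. Angpt1, for example, had a mean of 25.9 CPM at DIV3 and 28.2 at DIV7 in the wider gate. In fibroblasts it had 3.90 and 28.1. The astroglia class shared cells with the wider gate, as given above.

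Against fibroblasts, the contractile and pericyte genes with lower values were Actg2 (-4.10), Myl9 (-1.998), Cnn1 (-1.62), Acta2 (-1.10), Vtn (-5.85), Mcam (-2.53), the ligand Angpt1 (-2.68) and Col4a1 (-1.44). The other largest were Rarres2, a chemoattractant (-4.03), Lcn2, a lipocalin of reactive cells (-3.77), Epas1, a hypoxia-inducible factor (-3.50), and Pde8b (-3.47). Higher values were found for Hmga2 (5.57), the matrix gene Fbln2 (4.00), Fgf7 (3.38), Ptgs2 (3.20), Glipr1 (3.19) and Igfbp4 (2.37). The call was lost without DIV7 replicate 1 for Actg2, Lcn2, Fbln2 and Fgf7, without DIV3 replicate 1 for Lcn2, Pde8b, Glipr1, Acta2 and Col4a1, and without DIV7 replicate 2 for Mcam. Leaving out the cells with astroglia genes, it was lost for Lcn2 (-2.94, adjusted p = 0.227), Fgf7 (3.65, adjusted p = 0.379) and Acta2 (-1.65, adjusted p = 0.584).

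Against astroglia, lower values were found for Kcnmb1 (-5.36), Vtn (-5.22), Bcam (-4.30), Il13ra1 (-3.75), Epas1 (-3.43), Rarres2 (-3.42), Des (-3.34), Col4a1 (-1.42), Mcam (-1.02) and Myl9 (-0.72). Higher values were found for Tyrobp, a microglia gene (5.89), Pappa (4.51), Clmp (4.03), Mdk (3.41), Fbln2 (3.33), Igfbp4 (2.33) and Col1a1 (1.12). The call was lost without DIV7 replicate 2 for Tyrobp, Des, Vtn, Mcam and Myl9, without DIV7 replicate 1 for Fbln2 and Mcam, without DIV3 replicate 1 for Des, Vtn, Mcam and Myl9, and without DIV3 replicate 2 for Mcam and Myl9. On the same omission it was lost for Vtn (-4.80, adjusted p = 0.0630), Mcam (-1.18, adjusted p = 0.242) and Myl9 (-0.83, adjusted p = 0.0751).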

How the results depend on the processing

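From DIV3 to DIV7 the 501 calls became 166 with DESeq2, 847 with no low-count filter, 321 with libraries of at least 15 cells, 2 in the 66 cells with no minimum, 0 without cells holding markers of other classes (astroglia not counted), and 194 to 965 when 1 library was left out (194 and 237 on omitting DIV7 replicate 1 or 2, 247 and 965 on omitting DIV3 replicate 1 or 2). The difference of replicate 2 from replicate 1 had a correlation of 0.21 between DIV3 and DIV7. That correlation was 0.01 between DIV3 and DIV5 and 0.02 between DIV5 and DIV7. With a replicate block the calls were 1370 from DIV3 to DIV7, 39 from DIV3 to DIV5 and 1 from DIV5 to DIV7. From DIV3 to DIV5 the 4 calls became 25 with DESeq2, 10 with total-count scaling, 268 with no filter, 19 with only the libraries of both days, 16 with all libraries, 25 with no endothelial UMI, 152 and, with no minimum, 0 without cells holding other markers, 75 with a stricter cell filter, 115 without top doublet scores, 203 and, with no minimum, 47 without astroglia-gene cells, and 0 to 81 with 1 library left out (0 without DIV3 replicate 1, 81 without DIV3 replicate 2). From DIV5 to DIV7 the 1 call became 3 with DESeq2, 2 with total-count scaling, 16 with no filter, 0 with only the libraries of both days, 3 with all libraries, 0 with no endothelial UMI, 2 with the stricter filter, 8 without top doublet scores, 23 and, with no minimum, 2 without astroglia-gene cells, 0 without cells holding other markers, 0 in the 66 cells, and 0 to 10 with 1 library left out. Against fibroblasts 660 became 135 in the 66 cells and 231 to 597 with 1 library left out, and against astroglia 794 became 98 and 251 to 922. The cause was not tested. The log2 ratio of Acta2 over fibroblasts at DIV3, 2.63, became 2.76 with at least 4 of 6 genes, 2.76 without other markers and 2.84 without astroglia-gene cells. Pearson's r of the share with day stayed negative and missed the threshold under every alternative run, while Spearman's rho was 0.018 with the stricter cell filter and passed 0.05 in the 3 settings named above.

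Among genes, these changed sign. Without cells holding other markers, Notch1 (0.12), Col1a2 (-2.34), Mdk (-1.93), Cspg4 (0.29) and Tbx18 (-1.24) did so. In the 66 cells, Tln1 (0.056), Tbx18 (-0.63) and Col4a1 (0.14) did. With no endothelial UMI, Kdr (0.32), Aqp1 (-0.76), Cspg4 (0.12) and Tbx18 (-0.36) did. Without astroglia-gene cells Kdr (0.49) and Angpt1 (-0.21), with no filter Tbx18 (-0.073) and without top doublet scores Tbx18 (-0.026) did. With 1 library left out Kdr ranged from -1.53 to 0.37, Tbx18 from -0.27 to 0.44, Angpt1 from -0.10 to 0.42 and Col4a1 from -0.68 to 0.13. No fit could be had from DIV3 to DIV7 with at least 4 of 6 genes, after thinning to 5000 UMIs, or with the stricter cell filter. Cell number limits the 66 cells, since 4 of 7 libraries held at most 3 of them.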

Other observations

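Igfbp7, a secreted protein of vessel cells that is on no list here, followed the replicate number. In the 66 gated cells the replicate 1 and 2 libraries of DIV3 had 8012 and 769 CPM, those of DIV5 had 9075 and 1660, and those of DIV7 had 789 and 908. In fibroblast-gated cells the same pairs had 897 and 91.0 CPM, 567 and 83.2, and 721 and 256, and in neurons 78.2 and 5.46, 35.3 and 2.95, and 39.9 and 5.64. Replicate 1 was higher at each day in fibroblasts and neurons, and in the gated cells at DIV3 and DIV5. The gene was chosen after its values were seen, and the difference was not tested.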
